A study of Mus musculus with 6 samples.

Results

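The 39 genes described here mark or direct cell lineages other than T cells, and they were read in the chromatin of regulatory T cells (Tregs), the Foxp3-expressing CD4 T cells that restrain immune responses. The set was a list of named genes, not chosen by any measured value in the rule. It held 8 genes of B cells, 10 of myeloid and dendritic cells, 2 of erythroid cells, 10 of melanocytes and melanoma, 4 of epithelium, 2 of muscle, 2 of neurons and stem cells and 1 of liver, out of 21887 protein-coding genes of the RefSeq table for GRCm38.p6 (mm10). A region of open chromatin belonged to a gene if it overlapped the gene or the 10 kb on either side of it. Of the 64817 regions found in any library, 94 lay in these windows, 1 of them in the windows of both Itgam and Itgax.

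The assay was ATAC-seq, which marks accessible DNA by insertions of the transposase Tn5, on Tregs from tumour-draining lymph nodes of melanoma-bearing mice. WT mice were C57BL6 and KO mice were il33-/- in C57BL6 background, with 3 libraries each, numbered 2, 4 and 6 (WT) and 1, 2 and 4 (KO). Interleukin-33 is an alarmin cytokine sensed by Tregs that carry its receptor ST2. Both groups had received 300000 B16.F10 cells, a transplantable mouse melanoma line, under the skin, and nodes were taken on day 14. The label describes the cells as CD4+CD25+GITR+Foxp3+, and the protocol gives CD4, CD25 and GITR as the markers sorted on. The deletion is not described as limited to one cell type. The sources used here do not say that each library came from a separate mouse, so p-values measure the spread between libraries, which may be technical.

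Programmes of blood and tissue cells are set by lineage transcription factors: EBF1 and PAX5 in B cells, PU.1 (from Spi1) and the C/EBP proteins in myeloid cells, GATA1 and KLF1 in red cell precursors, and MITF and SOX10 in melanocytes. Promoters rich in CpG dinucleotides tend to be accessible in many cell types, while CpG-poor promoters tend to open only in cells that use the gene. An accessible site shows where Tn5 could insert and not that the gene was transcribed.

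The WT lists held 52836 to 55939 peaks from 12.9 to 15.2 M (mega) tags kept after filtering, and the KO lists 37266 to 42738 peaks from 4.72 to 10.3 M tags. No KO library reached the depth of any WT library, so genotype and depth cannot be told apart in the differences below. Chromosome Y carried 8 or 9 peaks in each WT list and 0 in each KO list, and the labels do not state the sex of the mice. Because pileup, the height of a peak at its summit, grows with depth, each height was divided by the median pileup of its own list (16 to 29 tags), so that 1 is the height of a middle peak. Heights are given in the order WT replicates 2, 4 and 6 and KO replicates 1, 2 and 4. A T lineage and Treg reference list of 20 genes, Cd3e, Cd4, Foxp3, Il2ra and Ctla4 among them, was read beside the set. All 20 had a peak within 1 kb of a gene end, against 59.0% of all protein-coding genes. In all 6 libraries 18 of them had one, against 49.8%. No other CD4 T cells were among the libraries, so these counts do not tell Tregs from them.

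Of the 39 genes of other lineages, 20 (51.3%) had a peak within 1 kb of a gene end in at least 1 library, 7 (17.9%) had peaks only elsewhere in the window, and 12 (30.8%) had no peak in any library. Over all protein-coding genes the shares were 59.0%, 15.2% and 25.8%. With a gene-end peak required in all 6 libraries, 14 genes (35.9%) remained, against 49.8% of all genes. The 12 genes without a peak were Ms4a1, which encodes the B cell surface protein CD20, the myeloid genes Lyz2 (lysozyme) and Csf1r (the receptor of macrophage colony-stimulating factor), the pigment genes Dct, Tyr, Tyrp1 and Slc45a2, the receptor tyrosine kinase gene Met, the keratin genes Krt5 and Krt14, the muscle filament gene Des and the stem cell factor gene Sox2. A gene without a called peak is one where no site reached the threshold at these depths, and may still have been open. By gene length, 5 of 15 genes shorter than 10 kb had no peak, against 43.1% of all genes of that size, 5 of 15 genes of 10 to 50 kb against 16.2%, and 2 of 9 longer genes against 15.6%.

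**Figure D1:**
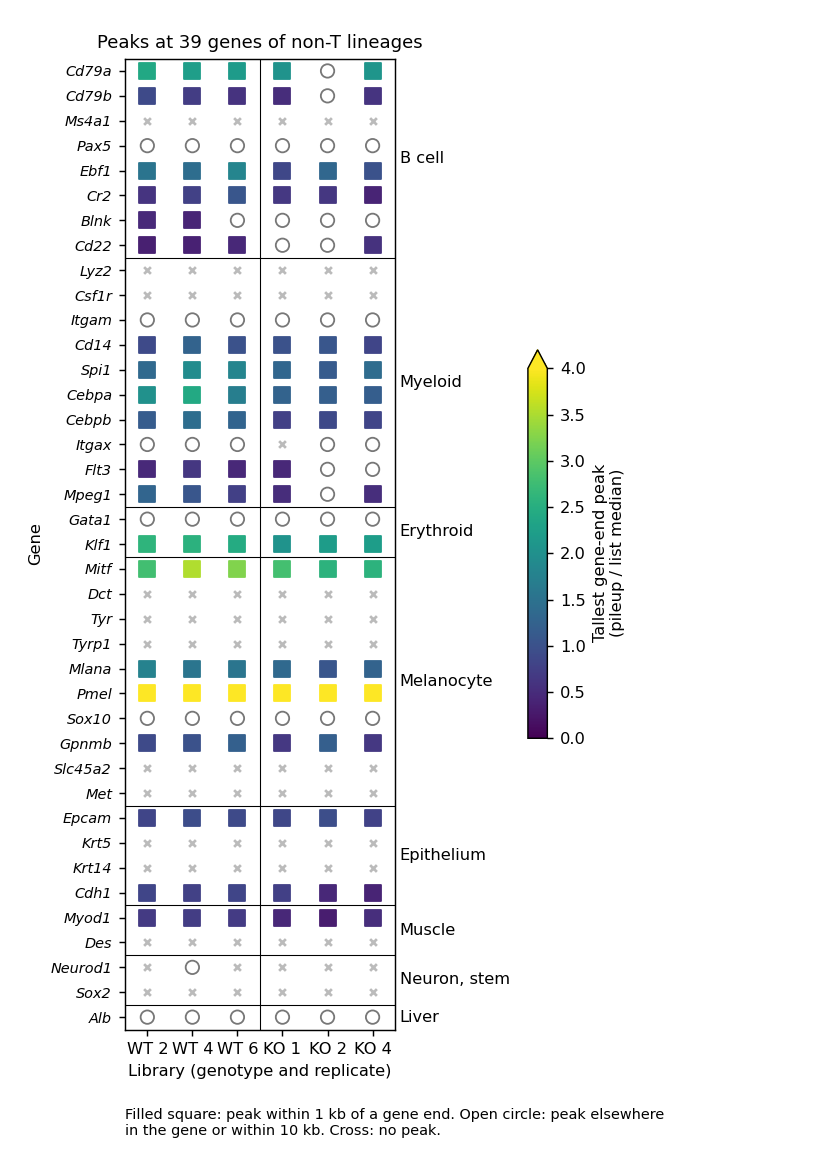
Peaks at each of the 39 genes (rows, grouped by lineage) in each library (columns, genotype and replicate). Filled squares mark a peak within 1 kb of a gene end, coloured by the height of the tallest one as pileup over the median pileup of its list, open circles mark peaks elsewhere in the window, and crosses mark no peak; the 12 genes without a peak had none in any column, and 14 genes had squares in all 6.

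The promoter sequences of 28 of the 39 genes were in the RefSeq promoter table, with 31 starts, each as 250 bases before to 50 bases after the start. A window was called CpG-rich with an observed over expected CpG ratio of at least 0.6 and a GC share of at least 50%. Of the 31 starts, 9 were CpG-rich (29.0%), against 45.1% of 21263 promoters of all protein-coding genes, and the median CpG ratio was 0.344 against 0.567. Cebpa, Cebpb and Mitf, 3 of the 9, had a peak within 1 kb of the start in all 6 libraries (33.3%), against 82.3% of all CpG-rich promoters. No library had one at the CpG-rich starts of Met, Neurod1, Pax5 and Sox2 or at the downstream start of Ebf1, so 5 of 9 were without a peak (55.6%), against 9.85% of all CpG-rich promoters. The remaining one, Flt3, had a peak at its start in the 3 WT libraries. Of the 22 CpG-poor starts, 4 had a peak in all 6 libraries (18.2%; Cr2, Klf1, Epcam and the upstream start of Ebf1), against 24% of all CpG-poor promoters, and 15 had none (68.2%), against 67.5%. When the peak had to overlap the window itself, 1 of the 22 had one in all 6 libraries (4.55%), that of Cr2, against 18.9% of all CpG-poor promoters. The shares rest on 9 and 22 starts and were not tested.

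**Figure D2:**
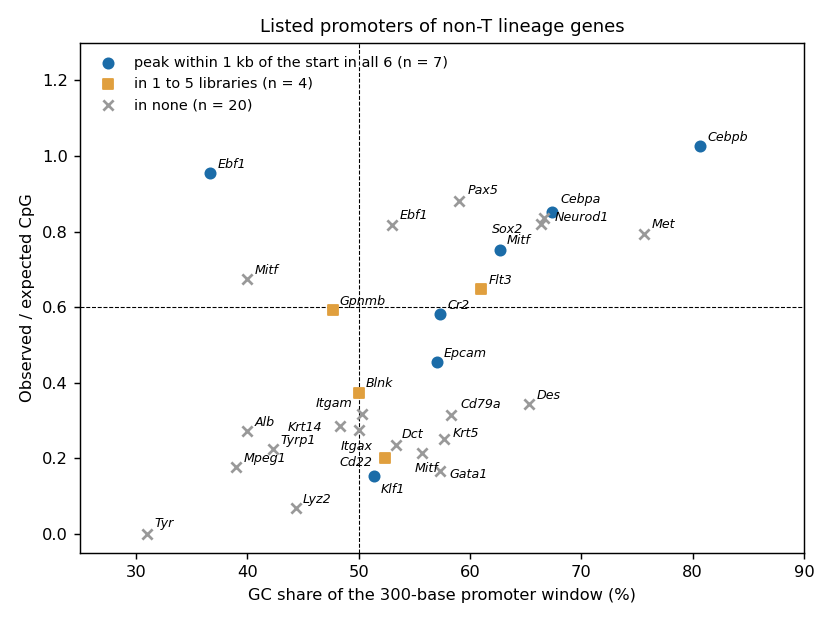
GC share (x axis, percent) and observed over expected CpG ratio (y axis) of the 31 listed promoter windows of 28 genes, marked by the number of libraries with a peak within 1 kb of the start. Dashed lines show the limits of the CpG-rich class; starts with and without a peak both occur in its upper right corner, with Cebpb, Cebpa and Mitf open in all 6 libraries and Met, Sox2, Neurod1 and Pax5 without a peak.

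The 8 windows below show that contrast. The first 4 are the listed windows that a peak overlapped in all 6 libraries, and the last 4 belong to genes with no peak at all, the 2 with the lowest and the 2 with the highest CpG ratio. Each is the run of 250 bases before the start, 5′ to 3′ on the gene's strand, from the RefSeq promoter table on GRCm38.p6, with CpG dinucleotides in capitals. They lie at chr1:195176720-195176969, minus strand (Cr2), chr6:97806808-97807057, plus strand (Mitf), chr7:35119043-35119292, plus strand (Cebpa), chr2:167688665-167688914, plus strand (Cebpb), chr7:87493513-87493762, minus strand (Tyr), chr10:117282273-117282522, minus strand (Lyz2), chr6:17463707-17463956, plus strand (Met), and chr3:34649745-34649994, plus strand (Sox2).
Cr2: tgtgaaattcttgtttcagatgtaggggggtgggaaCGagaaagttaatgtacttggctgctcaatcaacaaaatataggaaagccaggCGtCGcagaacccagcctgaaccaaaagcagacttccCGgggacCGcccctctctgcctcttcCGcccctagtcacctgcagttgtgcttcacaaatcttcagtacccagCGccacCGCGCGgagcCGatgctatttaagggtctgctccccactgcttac
Mitf: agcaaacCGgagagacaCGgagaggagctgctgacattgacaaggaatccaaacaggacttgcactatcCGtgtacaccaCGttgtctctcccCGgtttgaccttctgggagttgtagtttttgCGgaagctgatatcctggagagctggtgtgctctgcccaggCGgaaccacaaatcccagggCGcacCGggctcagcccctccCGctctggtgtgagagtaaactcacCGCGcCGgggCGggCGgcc
Cebpa: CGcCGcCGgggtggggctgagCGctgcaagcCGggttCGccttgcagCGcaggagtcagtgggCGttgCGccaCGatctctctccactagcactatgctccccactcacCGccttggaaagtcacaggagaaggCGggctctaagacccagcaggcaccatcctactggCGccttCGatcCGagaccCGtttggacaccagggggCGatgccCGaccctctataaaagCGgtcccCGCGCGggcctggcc
Cebpb: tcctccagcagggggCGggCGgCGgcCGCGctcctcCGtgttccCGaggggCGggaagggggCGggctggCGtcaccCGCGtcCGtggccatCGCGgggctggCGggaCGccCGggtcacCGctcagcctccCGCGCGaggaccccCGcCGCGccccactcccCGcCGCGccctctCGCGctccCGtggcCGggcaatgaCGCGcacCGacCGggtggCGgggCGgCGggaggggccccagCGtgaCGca
Tyr: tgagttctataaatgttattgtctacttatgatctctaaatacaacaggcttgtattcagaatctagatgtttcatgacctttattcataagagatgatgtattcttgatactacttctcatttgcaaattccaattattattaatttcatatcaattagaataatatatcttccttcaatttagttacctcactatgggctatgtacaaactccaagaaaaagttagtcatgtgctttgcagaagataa
Lyz2: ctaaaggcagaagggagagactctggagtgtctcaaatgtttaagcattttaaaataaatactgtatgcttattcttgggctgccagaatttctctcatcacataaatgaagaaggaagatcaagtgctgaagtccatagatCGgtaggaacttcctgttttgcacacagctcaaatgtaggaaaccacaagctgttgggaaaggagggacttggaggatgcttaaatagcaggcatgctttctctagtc
Met: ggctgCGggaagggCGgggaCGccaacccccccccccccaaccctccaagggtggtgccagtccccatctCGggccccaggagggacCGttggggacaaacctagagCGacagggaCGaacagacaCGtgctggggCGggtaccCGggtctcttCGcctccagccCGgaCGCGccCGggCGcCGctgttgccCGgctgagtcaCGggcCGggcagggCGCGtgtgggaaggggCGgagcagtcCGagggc
Sox2: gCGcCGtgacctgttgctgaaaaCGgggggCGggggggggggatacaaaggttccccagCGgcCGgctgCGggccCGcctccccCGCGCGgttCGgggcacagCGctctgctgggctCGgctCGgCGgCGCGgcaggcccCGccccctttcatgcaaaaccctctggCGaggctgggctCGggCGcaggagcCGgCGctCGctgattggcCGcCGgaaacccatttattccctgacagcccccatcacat

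The open windows held 11 (Cr2), 15 (Mitf), 22 (Cebpa) and 41 (Cebpb) CpG dinucleotides in these 250 bases. The windows without a peak held 0 (Tyr), 1 (Lyz2), 24 (Met) and 27 (Sox2). In these 250 bases Met and Sox2 thus carried more CpG than Cr2, Mitf and Cebpa. Over the whole promoter windows, which run past the start, Met held 34, Cebpa 29 and Sox2 27. By CpG ratio Cebpa (0.853) lay above Sox2 (0.819) and Met (0.794), while Mitf (0.752) and Cr2 (0.581) lay below them. Met and Sox2 were picked for the highest CpG ratio among genes without a peak, so high counts there follow in part from the choice.

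Short motifs of 4 lineage factors were searched on both strands of the 31 windows: CATGTG for MITF, CCCNNGGG (the same on both strands) for EBF1, GAGGAAGT for PU.1 and AGATAA for GATA1. CATGTG stood in 7 windows, those of Blnk, Cd22, Dct, Pax5, Sox2, Tyr and Tyrp1, and in 11.5% of all promoters. None of these 7 windows had a peak within 1 kb of the start in all 6 libraries, against 7 of all 31 windows. Over all protein-coding genes 10698 of 21263 promoters had one. The 3 pigment genes among those with CATGTG, Dct, Tyr and Tyrp1, had no peak anywhere. A link between the motif and starts without a peak was not tested. CCCNNGGG stood in 4 (Cd22, Cebpb, Gata1 and Krt14; 15.6% of all promoters), AGATAA in 4 (Itgax, Mpeg1, Tyr and Tyrp1; 9.65%) and GAGGAAGT in 0 (3.13%). Of the windows with CCCNNGGG, only that of Cebpb had a peak within 1 kb of the start in all 6 libraries. None of those with AGATAA had a peak there in any library. A match is a description of the sequence, and no match says only that these letters are not in this window.

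Among the 8 B cell genes, only Ebf1 and Cr2 had a gene-end peak in every library. In the Ebf1 window, a region 524 bp outside the upstream end (chromosome 11, 44616862 to 44617576) had heights of 1.54, 1.41 and 1.83 in WT and 0.85, 1.31 and 1 in KO. Every WT value lay above every KO value. Another Ebf1 region at the far end of the gene (45007988 to 45008450) was called in the 3 WT libraries, at 0.607, 0.556 and 0.862, and in no KO library. Cr2, which encodes complement receptor 2, had a region over its start (chromosome 1, 195176291 to 195177102) with heights of 0.607, 0.778 and 1.07 in WT and 0.65, 0.625 and 0.391 in KO, below the middle peak in 5 of the 6 libraries and overlapping between genotypes. Its taller neighbour, at 3, 3.07 and 3.17 in WT and 2.9, 2.62 and 2.78 in KO, lay at the end of the complement gene Cr1l.

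Cd79a and Cd79b, which encode the signalling chains of the B cell receptor, had gene-end peaks in 5 libraries each, all but KO replicate 2, the shallowest. Both Cd79a regions lay beyond the end that is not its listed start and within 1 kb of an end of Arhgef1, and no library had a peak within 1 kb of the listed start of Cd79a. The taller of them (chromosome 7, 24902444 to 24903291) had heights of 2.39, 2.22 and 2.17 in WT, 2.05 in KO replicate 1 and 1.87 in KO replicate 4. Further out, past the 1 kb limit of both genes, stood a region at 24904010 to 24904610 with 3.71, 4.07 and 3.79 in WT and 3.25, 3.69 and 3.26 in KO and one at 24906857 to 24907782 with 3.14, 3.07 and 3.07 in WT and 2.1, 2.19 and 1.91 in KO. In both of these every WT value lay above every KO value. Cd22, an inhibitory receptor of B cells, had a gene-end peak in 4 libraries and Blnk, the adaptor downstream of the B cell receptor, in 2. Both were weak, at means of 0.435 (Cd22) and 0.436 (Blnk) over the libraries with a peak. PAX5 keeps B cells committed to their lineage. Its gene had no peak at either end but 5 regions inside, of which those at 44624430 to 44625275 and 44704147 to 44704860 (chromosome 4) were called in all 6 libraries. The first had heights of 1.21, 1.59 and 0.897 in WT and 0.9, 0.875 and 0.957 in KO. The second had 1.29, 1.33 and 0.966 in WT and 0.9, 0.812 and 0.957 in KO. Both stood near the middle peak, and only the second separated the genotypes. In the windows of the 8 B cell genes there were 27, 30 and 28 WT peaks and 21, 16 and 21 KO peaks. The KO to WT ratio of means was 0.682, against 0.793 for the windows of all protein-coding genes. It was 0.765 for the myeloid, 0.78 for the melanocyte and 0.9 for the epithelial genes. For the erythroid, muscle and liver genes it was 1, and the neuron and stem cell genes had 1 peak, in WT replicate 4. These ratios rest on few peaks and were not tested. B cells share the lymph node with Tregs, and in a bulk library a site open in few cells and a site weakly open in many cells cannot be told apart. Ms4a1 had no peak, while Pax5 and Blnk had peaks inside the gene in every library. The Cd79a window also had peaks in every library, but all lay outside the gene. Those in KO replicate 2 lay closer to an end of Rps19 or Arhgef1 than to Cd79a. A part of B cell chromatin in these values was not tested.

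Of the 10 myeloid and dendritic cell genes, the transcription factor genes Spi1, Cebpa and Cebpb and the surface receptor gene Cd14 had gene-end peaks in all 6 libraries. A region over the start of Cebpa (chromosome 7, 35118052 to 35119578) had heights of 2, 2.41 and 1.69 in WT and 1.25, 1.19 and 1.17 in KO, means of 2.03 ± 0.360 in WT and 1.2 ± 0.0406 in KO (SD, n = 3 each). The tallest KO value lay below the lowest WT value. Cebpb had 4 regions called in all 6 libraries, 1 over its start (chromosome 2, 167688561 to 167689317) and 3 outside the gene. The start region had heights of 1.14, 1.26 and 1.28 in WT and 0.75, 0.875 and 0.826 in KO, and a neighbouring region in the gene (167689461 to 167690161) was called in WT only, at 1.14, 1.41 and 0.931. The 3 outer regions were taller than the start on average, with means of 1.46 at 167679933, 1.84 at 167685171 and 1.73 at 167697786, against 1.02.

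Spi1 had a region 354 bp inside one end (chromosome 2, 91082728 to 91083436) with heights of 1.36, 1.93 and 1.83 in WT and 1.3, 1.12 and 1.39 in KO. A second region, inside the gene at 91101109 to 91101934, reached 2.18, 1.89 and 1.69 in WT and 1.75, 1.19 and 1.43 in KO. Both overlapped between genotypes. The Cd14 region lay within the gene, with heights of 0.893, 1.26 and 1 in WT and 1, 1.06 and 0.826 in KO, also overlapping. Flt3, the receptor tyrosine kinase of dendritic cell progenitors, had a weak region over its start (chromosome 5, 147400135 to 147400495) that was called in the WT libraries only, at 0.429, 0.444 and 0.448. Its tallest region, 10043 bp inside the gene at 147340784 to 147341725, was called in all 6, at 1.5, 1.78 and 1.93 in WT and 1.35, 1.38 and 1.91 in KO. Mpeg1, which encodes the pore-forming protein perforin-2, had its 1 gene-end region at an end of Dtx4. The integrin genes Itgam (CD11b) and Itgax (CD11c) had no gene-end peak, and the 1 region of Itgax was the one it shares with Itgam, called in 5 libraries. Lyz2 and Csf1r, 2 genes that macrophages use heavily, had no peak in any library, and a part of myeloid chromatin in the other values was not tested.

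Klf1, a regulator of globin genes, had a tall region 564 bp inside the gene from its listed start (chromosome 8, 84902546 to 84903821), at 2.61, 2.56 and 2.45 in WT and 2.05, 2.19 and 2.22 in KO. Its window also held 3 regions at ends of Gcdh, Dnase2a and Mast1, with means of 3.48, 2.84 and 2.59. Gata1 had no gene-end peak and 2 regions in all 6 libraries, 1 inside the gene (chromosome X, 7964071 to 7964687) and 1 lying 1008 bp outside it, just past the 1 kb limit (7977671 to 7978410). The inner one had heights of 0.643, 1 and 0.586 in WT and 1, 0.5 and 0.783 in KO. The outer one had 0.786, 0.963 and 0.966 in WT and 0.8, 0.812 and 0.826 in KO. Both stood at or below the middle peak in all libraries, and the genotypes overlapped.

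Of the 10 melanocyte genes, 4 had a gene-end peak in all 6 libraries, 1 had a peak only elsewhere and 5 had none. Mitf, the master regulator of pigment cells, is known to be transcribed from alternative first exons. A region over the most upstream of its 3 listed starts (chromosome 6, 97806702 to 97807858) had heights of 2.79, 3.52 and 3.24 in WT and 2.8, 2.56 and 2.57 in KO, and no library had a peak within 1 kb of the other 2 starts. Pmel, the gene of a melanosome fibril protein, had the tallest region of all 94 at one end (chromosome 10, 128695637 to 128696866), at 4.71, 5.33 and 5.21 in WT and 5.45, 5.69 and 4.65 in KO, but this end also lies at the end of Rab5b, a gene of vesicle transport. Mlana, the gene of a melanosome antigen, had a region at one end (chromosome 19, 29707936 to 29708587) with heights of 1.75, 1.56 and 1.55 in WT and 1.35, 1.06 and 1.26 in KO. The table gives neither a strand nor a start for Mlana and Pmel. Gpnmb, which encodes a glycoprotein of melanosomes and lysosomes, had a region 151 bp inside its far end (chromosome 6, 49057201 to 49058031) with heights of 0.893, 1 and 0.621 in WT and 0.55, 0.438 and 0.652 in KO, and 2 regions near its start. The one over the start (49036127 to 49036726) was called in the 3 WT libraries, at 0.893, 1 and 1.21, and in KO replicates 1 and 2, at 0.65 and 1.19. Its neighbour (49036951 to 49037276) was called in WT only, at 0.714, 0.667 and 0.966. Sox10 had a single region, 5812 bp outside the gene (chromosome 15, 79148428 to 79149101), at 1.21, 1.19 and 1.07 in WT and 0.5, 0.75 and 0.739 in KO, with every WT value above every KO value.

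Dct, Tyr and Tyrp1, the 3 enzymes of melanin synthesis, the pigment cell transporter gene Slc45a2 and Met had no peak in any library. These 5 of the 10 melanocyte genes stood at 0 in all 6 lists, while Mitf, Pmel, Mlana, Gpnmb and Sox10 had peaks in their windows in all 6. A part of chromatin from B16.F10 cells in these values was not tested.

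Epcam and Cdh1, the cell adhesion genes of epithelium, had gene-end regions in every library, while Krt5 and Krt14 had no peak. The Epcam region (chromosome 17, 87636108 to 87637365) had heights of 0.821, 0.926 and 0.897 in WT and 0.85, 0.938 and 0.783 in KO, overlapping between genotypes. Each KO list split it into 2 peaks, where each WT list had 1. At Cdh1, the E-cadherin gene, a region over one end (chromosome 8, 106603070 to 106603975) had heights of 0.821, 0.778 and 0.828 in WT and 0.75, 0.438 and 0.391 in KO. The tallest Cdh1 region was inside the gene at 106642998 to 106643616, at 1.71, 1.48 and 1.45 in WT and 1.2, 0.938 and 1.35 in KO. Both Cdh1 regions separated the genotypes, with WT above KO. Myod1, the master regulator of muscle, had 1 region at one end (chromosome 7, 46379047 to 46379543), at 0.679, 0.704 and 0.69 in WT and 0.45, 0.312 and 0.522 in KO, the lowest mean height of the 14 gene-end regions called in all 6 libraries. Neurod1, a neuronal transcription factor gene, had 1 peak, in WT replicate 4 alone, with a pileup of 9 tags. Alb, the serum albumin gene of liver, had 1 region 7571 bp outside the gene (chromosome 5, 90452697 to 90453299), at 1.21, 1.3 and 1.52 in WT and 0.95, 1.12 and 1 in KO.

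**Figure D3:**
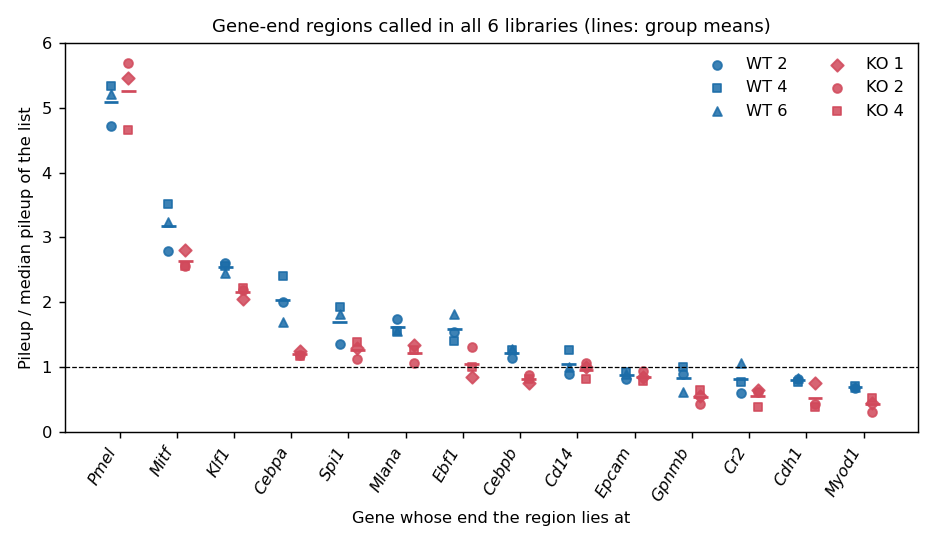
Height of the 14 gene-end regions called in all 6 libraries (y axis, pileup over the median pileup of the list; x axis, the gene), with 1 point per library and a line at each group mean. Mean heights ran from 0.559 at Myod1 to 5.17 at Pmel. In 7 of the 14 regions every WT library lay above every KO library on this scale, against 48.2% of all shared regions. With heights divided by the median over shared regions that held at Cebpa, Cebpb and Myod1, against 6.9% of all shared regions. The reverse then held at Epcam and Pmel, against 13.7%.

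Most of the tallest peaks near these genes lay at ends of neighbouring genes. Of the 94 regions, 14 lay within 1 kb of an end of another gene, and their median height was 2.32, against 0.759 for the other 80. The 24 regions at a gene end of the set that was not shared with another gene had a median of 0.761, near the 0.768 of all 64817 regions. With shared ends included, the 28 gene-end regions of the set had a median of 0.849. The 14094 regions at the ends of all protein-coding genes, shared ends also included, had 2.01. Of the 10 tallest regions, 7 lay at the end of another gene, the Pmel and Rab5b region among them, 1 at the start of Mitf, and the last 2 in the Cd79a window beyond 1 kb of any gene end. For 3 of the 20 genes with a gene-end peak (Cd79a, Mpeg1 and Pmel), each such peak was also within 1 kb of another gene's end, which leaves 17. Regions called in all 6 libraries made up 52.1% of the 94, against 45.4% of all regions.

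**Figure D4:**
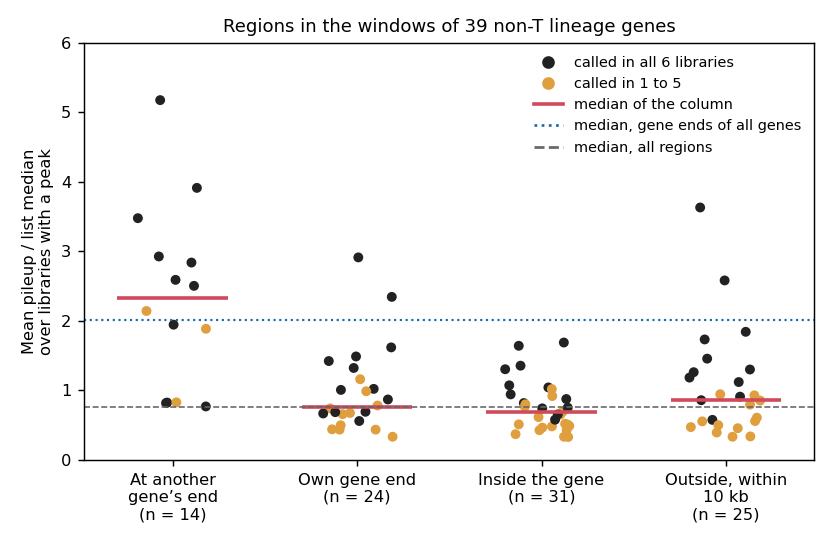
Mean height over the libraries with a peak (y axis, pileup over the median pileup of the list) of the 94 regions, by place (x axis); black points were called in all 6 libraries and orange points in 1 to 5. Red lines are column medians, 2.32 at another gene's end and 0.761 at the gene's own end, a column that leaves out shared ends. The dotted line is the median of 2.01 for the gene ends of all genes, shared ends included, and the dashed line that of 0.768 for all regions.

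Other genes of the same 8 lineages, listed from knowledge of each lineage, were sorted into the same classes, which take in every gene. Gene-end peaks were called at 6 of 12 further B cell genes, 6 of 16 myeloid, 6 of 8 erythroid, 4 of 10 melanocyte, 4 of 8 epithelial, 4 of 8 muscle, 3 of 8 neuronal and 1 of 8 liver genes. No peak was called at 0, 2, 2, 3, 1, 2, 5 and 4 of them in the same order. Gene-end peaks in all 6 libraries were seen at 2 of the B cell, 4 of the myeloid, 5 of the erythroid, 3 of the melanocyte, 2 of the epithelial, 2 of the muscle, 1 of the neuronal and 1 of the liver genes. Over all protein-coding genes, 59.0% had a gene-end peak, 49.8% had one in all 6 libraries and 25.8% had no peak. The counts of 8 to 16 genes a list are a description and were not tested against each other.

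The number of genes of the set with a peak was nearly equal in the genotypes. It was 26, 27 and 26 in the WT libraries and 25, 26 and 26 in the KO libraries, means of 26.3 ± 0.577 and 25.7 ± 0.577 (SD, n = 3 each). The groups overlapped. With a peak at a gene end, the numbers were 20, 20 and 19 against 18, 14 and 18, with every KO library lower and KO replicate 2, the shallowest, lowest. The same order held over all protein-coding genes, with 12383, 12495 and 12344 in WT and 11628, 11308 and 11568 in KO libraries, so it is no result about these genes. Their windows held 85, 90 and 86 peaks in WT and 70, 60 and 71 in KO libraries, a ratio of means of 0.770, beside 0.793 for all protein-coding genes and 0.809 for the 20 T lineage genes. Per 10000 peaks of each list the means were 16.1 in WT and 16.4 in KO, so the fewer peaks went with the shorter lists.

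Regions present in the 3 lists of a genotype and absent from the 3 of the other numbered 4 for WT, those at Ebf1, Cebpb, Flt3 and Gpnmb given above, which is 4.26% of the 94 regions against 4.66% of all regions. The number for KO was 0, against 0.0185% of all regions. The share near the background is no result about these genes, and presence in 3 against 3 libraries cannot give a permutation p under 0.1 for a single region. In lists of equal length 2 regions were WT-only, 1 each at Pax5 and Ebf1, against 470 over all regions of those lists.

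Heights were compared in the 49 regions called in all 6 libraries, with limma fitted to all 29419 such regions and Benjamini-Hochberg adjustment over them. In 14 of the 49 (28.6%), in the windows of 11 genes, heights were larger in WT at an adjusted p under 0.05, against 34.6% of all shared regions, and in 0 were they larger in KO, against 0.0374%. At an unadjusted p under 0.05, 27 of the 49 differed in either direction, against 49.3% of all shared regions. The median log2 difference, WT over KO, was 0.41 in the 49 and 0.32 over all shared regions. The log2 differences and limma p-values on this scaling were taken against 0, so they include that shift of 0.32. It moves with the scaling. Every WT value lay above every KO value in 22 of the 49 (44.9%), against 48.2% of all shared regions, and the reverse occurred in 0, against 0.197%. That order, also where it is given for single genes above, holds for the scaling to each list's own median. None of these shares was tested against that of all shared regions.

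Of the 14 gene-end regions called in all 6 libraries, 6 were among those higher in WT, beside 34.6% of all shared regions. The largest log2 difference was at Cebpa, 0.74 (SE 0.16, limma adjusted p = 0.00187). It was the only one of the 6 that passed the threshold whichever library was left out (adjusted p from 0.000915 to 0.0399). Ebf1 differed by 0.61 (SE 0.19, limma adjusted p = 0.0145), and without KO replicate 1 or WT replicate 6 it did not pass (adjusted p = 0.0561 and 0.0951). Myod1 differed by 0.72, Cdh1 by 0.68, Gpnmb by 0.61 and Cebpb by 0.59, with limma adjusted p-values of 0.0248, 0.0320, 0.0485 and 0.0260, and each of these calls was lost in at least 4 of the 6 fits that left out a library. Less the shift of 0.32, these differences were 0.42 (Cebpa), 0.29 (Ebf1), 0.41 (Myod1), 0.36 (Cdh1), 0.29 (Gpnmb) and 0.27 (Cebpb). Away from gene ends, the largest difference was 0.93 in a Cd22 window region (30859264 to 30860306, limma adjusted p = 0.00389). It lay at the end of the fatty acid receptor gene Ffar1. Next was Sox10, at 0.82 (adjusted p = 0.00666). The inner Spi1 region at 91101109, where single values overlapped between genotypes, was also called (0.41, adjusted p = 0.0457).

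When each height was instead divided by the median over the shared regions, which moves the median of all shared regions to -0.03, 0 of the 49 were higher in WT (limma), against 0.323% of all shared regions, and 8 had an unadjusted p under 0.05 in either direction, against 16.5%. One, the Pmel and Rab5b region, was higher in KO, with a log2 difference of -0.39 (limma adjusted p = 0.00675), against 2.1% of all shared regions. On this scale Cebpa differed by 0.39 (adjusted p = 0.168), Sox10 by 0.48 (adjusted p = 0.259) and the median of the 49 was 0.06. Mitf, Klf1, Cd14 and Epcam, higher in WT on the first scale and not past its threshold, were lower in WT on this one. Every WT value lay above every KO value in 6 of the 49 (the gene-end regions of Cebpa, Cebpb and Myod1, the outermost Cd79a region, the Sox10 region and the one at Ffar1), against 6.9% of all shared regions. The reverse held in 7, against 13.7%, among them the gene-end regions of Epcam and Pmel and the Cd79a region at 24904010, which had the opposite order on the first scale. With heights divided by the tags kept the numbers were 1 (Myod1), against 3.34%, and 1 (the Cd14 window region at the end of Tmco6), against 4.7%. The count of 14 therefore held only under the scaling to each list's median, and per tags kept 0 of the 49 passed in either direction (limma; 1 at an unadjusted p under 0.05, against 3.11% of all shared regions). It also rested on single libraries, falling to 4 without WT replicate 4 and to 8 without WT replicate 6, and over all shared regions from 10186 to 2975 and 5733.

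**Figure D5:**
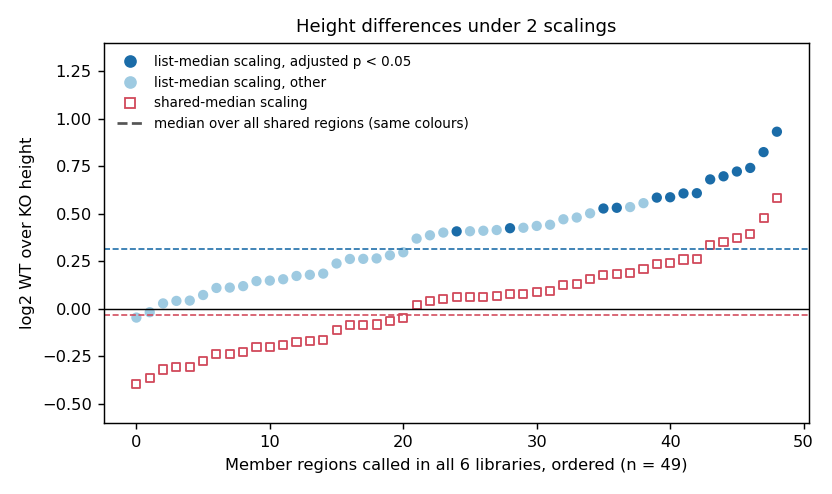
The log2 difference of height, WT over KO (y axis), in the 49 regions called in all 6 libraries, in order of size (x axis), with each height divided by the median of its own list (circles, dark where the limma adjusted p was under 0.05) or by the median over the shared regions (squares). Dashed lines are the medians over all 29419 shared regions, 0.32 and -0.03; the set was spread around both lines.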

How the data were processed

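ATAC-seq peak lists of 6 libraries, 3 WT and 3 KO by the genotype in the labels, were used as deposited. Per the submitters' processing notes the build was mm10, with Bowtie2 2.3.1 and Picard 1.88 among the tools named. Per the file headers, MACS 2.1.1.20160309 called the peaks of each library by itself, with no control library, a q-value cutoff of 0.05, a shift of -100 and an extension of 200 bp. The deposited pileup is a signal, the tag coverage at the summit, not scaled to depth. Its significance is deposited as a −log10 p-value and as a −log10 q-value, and the deposited fold enrichment is its ratio to the local background. Peaks of the 6 lists were merged into regions at 1 bp overlap, and a region took the highest peak of a library. Gene spans and promoters came from RefSeq tables on GRCm38.p6. All 39 symbols were matched. Spans have no strand, so gene ends stand for starts and stops.

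Heights, as log2 of pileup over the list's median, were tested with limma 3.58.1 (with a trend, R 4.3.3, Benjamini-Hochberg), a step checked on simulated data. Python 3.11.15, NumPy 2.4.6, pandas 2.3.3 and Matplotlib 3.10.9 did the rest. Values in every library are printed for genes with a gene-end peak in all 6 libraries, for regions of one genotype only and for the 3 tallest regions of the other genes; other regions printed were chosen after their values were seen. Genes, lists and tests were chosen with earlier results of these data known. Alternatives were other thresholds, equal-length lists, windows, gene-end distances, scalings, summed peaks, a fit without trend, a replicate block and leaving out each library.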

Additional observations from a re-analysis of the deposited data

How the results depend on the processing

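The difference in the number of genes with a peak, 0.667 (WT minus KO), was 0 in equal-length lists, 1.33 with gene bodies only and 2.67 with windows of 50 kb, and 0.333 to 0.833 with a library left out. The difference of 20 peaks was 4 in equal-length lists, 13.3 in gene bodies and -0.297 per 10000 peaks, and 16.5 to 22 with a library left out. With a library left out, the genes without a peak numbered 12 to 13 and those with a gene-end peak 20. Those with peaks only elsewhere numbered 6 to 7, and 4 with gene ends of 2 kb, since Itgam, Gata1 and Neurod1 then counted as gene-end genes. Klf1 and Mpeg1 lost that class at 0.5 kb or by summit, Blnk lost it in equal-length lists, and Neurod1 lost its only peak there, at the stricter threshold and without WT replicate 4. WT-only regions numbered 2 in equal-length lists, against 470 over all regions. With a library left out they numbered 4 to 9 (9 without WT replicate 2, 7 without WT replicate 6, 8 without KO replicate 4). Over all regions these settings gave 4538, 4747 and 4909 in the same order, against 3022 with all libraries. KO-only regions numbered 1 with summit windows, against 257 over all regions. CpG-poor starts with a peak in all 6 libraries fell from 4 to 1 of 22 (4.55%) when the peak had to overlap the window itself, against 18.9% of all CpG-poor promoters.

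Regions higher in WT numbered 14 as reported, 0 with the shared-region median and 0 with heights per tags kept, 3 by fold enrichment, 4 with summed peaks and 4 to 15 with a library left out. Regions higher in KO numbered 1 with the shared-region median, 1 with summed peaks and 0 with any library left out. Over all shared regions those counts were 617, 110 and 4 to 22. Over all shared regions, the count higher in WT was 95 with the shared-region median, 1 per tags kept, 1273 by fold enrichment, 5632 without a trend and 3101 with summed peaks, against 10186. Signs turned at Cd14 (-0.23 with the shared-region median, -0.25 per tags kept, -0.36 with summed peaks, -0.019 without WT replicate 4, up to 0.229 with another library left out) and at Epcam (-0.30, -0.33 and -0.72 with the same 3 scalings, -0.096 by fold enrichment, -0.020 without KO replicate 4, up to 0.110 with another left out). In the summed fit Epcam was higher in KO (limma adjusted p = 0.0361), where its region held 2 peaks in each KO and 1 in each WT library. They also turned at Klf1 (-0.11 and -0.13), Mitf (-0.085 and -0.11; shared-region median, then per tags kept), Cebpb (-0.012 by fold enrichment) and Pmel (0.0071 without WT replicate 2, 0.012 without KO replicate 2). The cause was not tested.

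Replicate numbers 2 and 4 occur in both genotypes, and the labels do not say what the number means. Deviations of same-numbered libraries correlated at -0.021 and -0.052, within the range of -0.052 to 0.052 over all pairs of a WT and a KO library. Such values cannot tell whether same-numbered libraries were handled together. With the replicate block in these 4 libraries, 11 of the 49 regions were higher in WT, against 10 unpaired. Over all 29419 shared regions the counts were 6968 and 6516. Depth limits all presence calls, since the lowest pileup in any list was 4 to 7 tags.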

Other observations

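Genes of 2 further cell groups of the lymph node were read in the same way. Of 8 genes of CD8 T and NK cells, lymphocytes close to Tregs, 5 had a gene-end peak, 2 of them in all 6 libraries, 2 had peaks only elsewhere and 1 had none. Of 8 genes of stroma and endothelium, 2 had a gene-end peak, 1 of them in all 6 libraries, 4 had peaks only elsewhere and 2 had none. Over all 94 genes of the 10 additional lists, 22 (23.4%) had no peak, 31 (33.0%) had peaks only elsewhere and 41 (43.6%) had a gene-end peak, against 25.8%, 15.2% and 59.0% of all protein-coding genes. In the 39 named genes the share with peaks only elsewhere was 17.9%.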
